A study of Mus musculus with 4 samples.

Results

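The genes described here are the centrins and centriole maturation genes Cetn2, Cetn3, Cetn4, Poc1a, Poc1b, Ccp110, Cep97, Cep120, Cep135 and Pcm1. They were taken by symbol from a list of 10 names, and all 10 were read by the array, each by 1 probe set, out of 30574 named genes. The arrays came from a study of the null allele of Gemc1 (current symbol Gmnc), a geminin relative that starts the gene programme of multiciliated cells. RNA was prepared from freshly dissected whole tissue in 4 groups with 1 array each: trachea of a male labelled Gemc1-null, trachea of a WT male, oviduct of a female labelled Gemc1-null and oviduct of a WT female. The tracheas were of 39 days and the oviducts of 65 days, all on the strain background mixed C57BL/6 x 129, and none was treated. The sources used here do not give which part of the gene the null allele lacks, or whether tissue of several mice was pooled. With 1 array per group a difference within a tissue has no replicate, no error and no test, and a fit across the tissues has 1 residual degree of freedom.

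Multiciliated cells build a large number of centrioles, which dock at the cell surface and become the basal bodies of motile cilia. Centrins are small calcium-binding proteins of the centriole's inner lumen and distal end, POC1 and CEP135 proteins stabilise its wall, and CEP120 acts in its elongation. CCP110 and CEP97 form a cap on the distal end that has to be removed before an axoneme can grow, and PCM1 is the scaffold of centriolar satellites, the granules that deliver centriole proteins. Nearly all of these proteins also serve the ordinary centrosome of cells without motile cilia.

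Levels are log2 RMA signals (RMA is the array normalization the authors used), and differences are Gemc1-null minus WT within a tissue. The median over all 72688 probe sets lay between 5.91 and 6.00 on the 4 arrays. The median of the array's 5222 negative-control probe sets, taken here as background, was 5.74 on the null-labelled and 5.98 on the WT array in trachea, and 5.79 on the null-labelled and 5.77 on the WT array in oviduct. The controls spread widely, and all 40 values of the 10 genes lay below the controls' 95th percentile of 8.70 to 8.87, so that the number of arrays and the background both limit what follows. The targeted gene, Gmnc (NCBI gene 239789), read 4.63 on the null-labelled and 5.90 on the WT array of trachea, both below the negative-control median. In oviduct it read 8.86 on the null-labelled array and 6.11 on the WT array, higher where the label says null. Whether this goes against the label cannot be told, because the deleted part is not known. The arrays are therefore named by their labels throughout, and each direction rests on them. A probe set outside the deleted part would check nothing.

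In both tissues Cetn4 had the lowest difference of the 10 genes and was the only one of them past 2-fold. Ccp110 and Cep97, which encode the partners of the distal cap, were lower on the null-labelled array by 1.54-fold to 1.72-fold in each tissue. Cep135, Cetn2, Cep120 and Poc1b were lower on the null-labelled array in trachea by 1.37-fold to 1.86-fold, with log2 differences of -0.07 to 0.37 in oviduct. Poc1a, Cetn3 and Pcm1 had log2 differences of -0.19 to 0.26 over both tissues.

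In trachea 1 of 10 genes was at least 2-fold lower on the null-labelled array, where 7.7% of the 20067 genes past the level filter were, and 0 were at least 2-fold higher, where 6.34% were. The level filter kept genes that reached the array's median probe set on 1 or more arrays of that tissue, and all 10 genes passed it in each tissue. Cetn4 and Cep97 passed it in each tissue through the WT array alone. In oviduct 1 of 10 was at least 2-fold lower, beside 2.74% of 19612 genes, and 0 were higher, beside 0.806%. At a 1.5-fold threshold 4 of 10 were lower in trachea (Cetn4, Cep135, Ccp110 and Cep97), beside 13.3% of all genes, and 0 were higher, beside 11.8%. In oviduct 3 of 10 were lower at that threshold (Cetn4, Ccp110 and Cep97), beside 5.23%, and 0 were higher, beside 2.81%. The same 3 genes were lower by 1.5-fold or more in both tissues, beside 2.23% of the 18793 genes past the filter in both. In oviduct Cep97 counts only through a null-labelled value below background, against which it was at least 1.22-fold lower. Cetn4 alone was lower by 2-fold or more in both, beside 1.3%. The median difference of the 10 genes was -0.50 in trachea and -0.05 in oviduct, beside 0.03 and 0.05 over all genes.

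**Figure D1:**
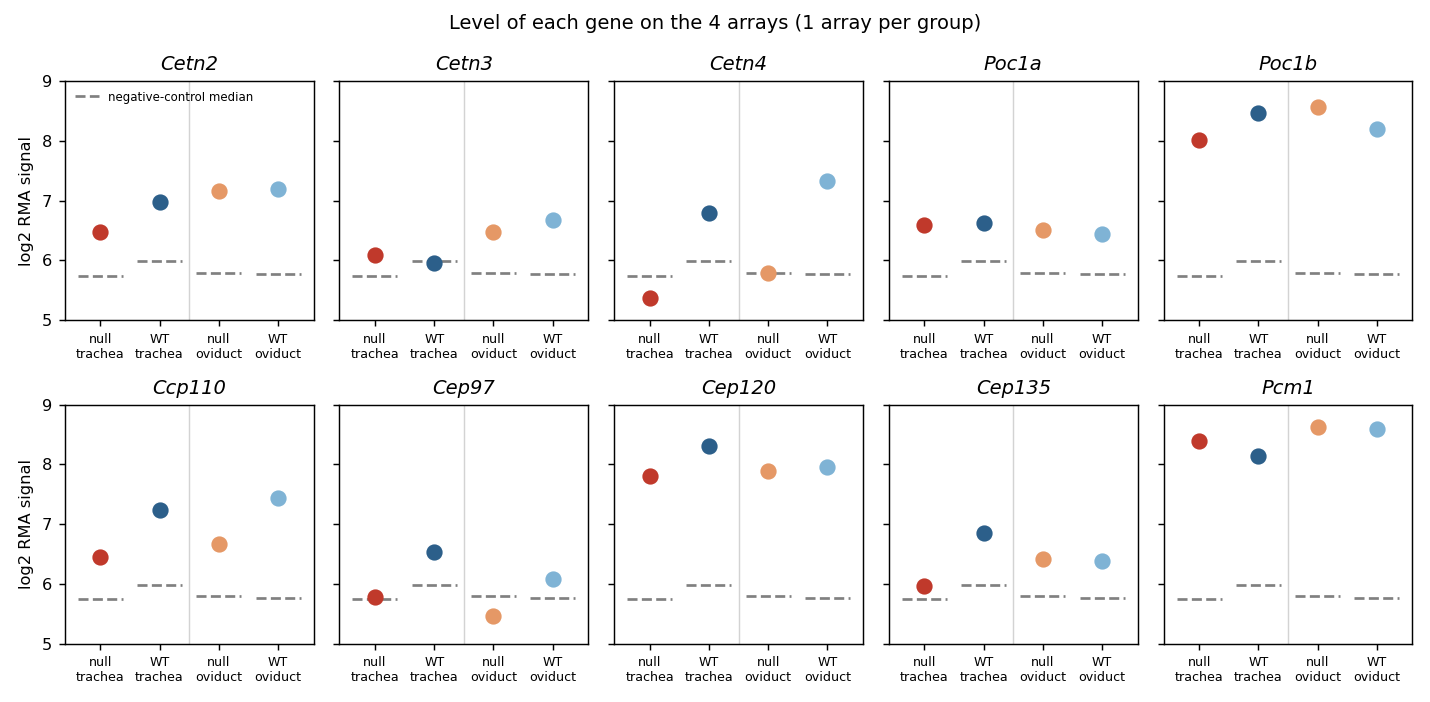
Log2 RMA signal (y axis) of the 10 genes on the 4 arrays (x axis), 1 point per array, with each array's negative-control median as a dashed line. Cetn4, Ccp110 and Cep97 were lower on the null-labelled array of each tissue, and Cetn4 lay below the dashed line on both null-labelled arrays.

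Cetn4 encodes a centrin that in mice is known from ciliated cells. It read 5.37 on the null-labelled and 6.79 on the WT array of trachea, and 5.78 on the null-labelled and 7.32 on the WT array of oviduct. Both WT arrays were above both null-labelled arrays, and both null-labelled values lay below the negative-control median of their array. The differences were -1.43 in trachea and -1.54 in oviduct, or 2.69-fold and 2.91-fold lower as measured. The negative-control median of the null-labelled array was also put in place of the null-labelled value. By that reckoning Cetn4 was 2.07-fold lower in trachea and at least 2.89-fold lower in oviduct. The trachea fold is no lower bound, because the WT array's own negative-control median was higher (5.98, beside 5.74). On the WT array of trachea Cetn4 lay 0.81 above that array's median. In trachea 4.99% of genes past the filter had a difference this low or lower, and in oviduct 1.46%. In bulk tissue fewer cells of a type and less RNA per cell cannot be told apart, for Cetn4 or any gene below.

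Cetn4 lies on mouse chromosome 3 head to head with Bbs12, which encodes a chaperonin-like protein needed to assemble the BBSome, a ciliary transport complex. Their annotated starts in RefSeq are 108 bases apart, so that 1 short stretch lies upstream of both. The promoter window of Cetn4 (250 bases before its start to 50 after) is shown because the genes on its 2 sides differed in their values. It is chr3:37312397-37312696 of GRCm38.p6, minus strand, from RefSeq, written 5′ to 3′ with the bases between the starts of Bbs12 and Cetn4 in capitals.
Cetn4: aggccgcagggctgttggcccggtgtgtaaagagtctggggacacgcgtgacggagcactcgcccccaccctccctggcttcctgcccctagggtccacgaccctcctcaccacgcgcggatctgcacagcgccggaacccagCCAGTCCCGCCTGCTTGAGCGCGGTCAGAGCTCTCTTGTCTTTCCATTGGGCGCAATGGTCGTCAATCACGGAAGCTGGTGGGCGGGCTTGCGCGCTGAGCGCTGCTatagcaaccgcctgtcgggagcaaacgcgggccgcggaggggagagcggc
Bbs12 read 6.14 on the null-labelled and 6.19 on the WT array of trachea, and 6.76 on the null-labelled and 6.53 on the WT array of oviduct. Its differences were -0.06 in trachea and 0.23 in oviduct, beside -1.43 and -1.54 for Cetn4. On the WT array of trachea Bbs12 lay near the negative-control median of 5.98, which left little room for a lower value to show. The contrast between these genes was not tested. Cetn2 also has a head-to-head neighbour, Nsdhl, a gene of cholesterol synthesis, 177 bases away on the X chromosome. Nsdhl differed by 0.06 in trachea and -0.29 in oviduct. The other members with a promoter in the RefSeq table (8 of 10 had one) had no head-to-head start nearer than 6805 bases.

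The genes whose levels over the 4 arrays were most like those of Cetn4 were searched among 18792 genes past the filter in both tissues, by the Euclidean distance between levels centred on each gene's own mean. In order they were Ccdc40 (distance 0.086), Gpr83 (0.141), Iqcg (0.16), Jhy (0.162) and Fam149a (0.175). The choice fixes that their differences lie near those of Cetn4, and the order rests on Cetn4 values below background on both null-labelled arrays. The likeness is a description over 4 arrays.

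**Figure D2:**
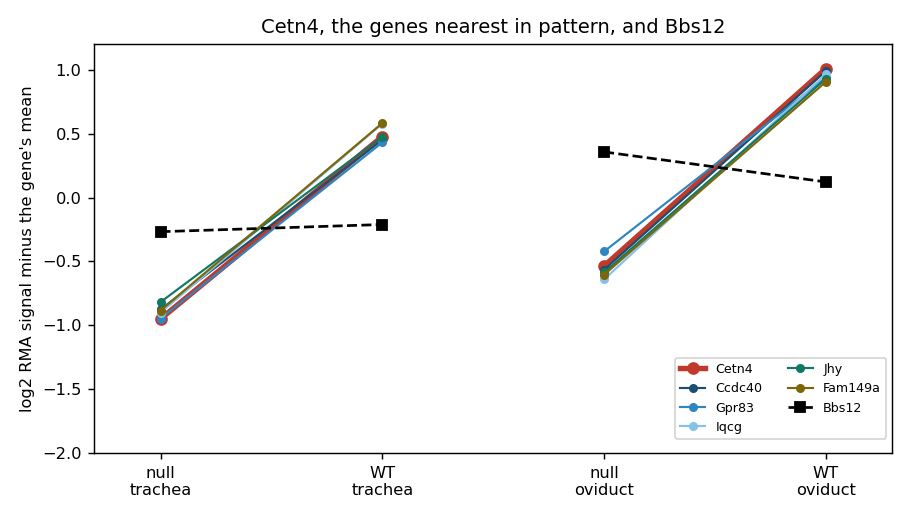
Log2 RMA signal minus each gene's mean over the 4 arrays (y axis) on each array (x axis), with lines joining the arrays of 1 tissue, for Cetn4 (thick line), its 5 nearest genes and its head-to-head neighbour Bbs12 (dashed). The 5 genes follow Cetn4 because they were chosen for it, and Bbs12 differed by -0.06 and 0.23.

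Cetn2, the centrin of centrioles in most dividing cells and a partner of the DNA repair protein XPC, read 6.48 on the null-labelled and 6.97 on the WT array of trachea. In oviduct it read 7.16 on the null-labelled and 7.20 on the WT array. Its difference was -0.50 in trachea and -0.04 in oviduct, and both oviduct arrays were above both trachea arrays. Cetn3, the more divergent of the centrins, read 6.09 on the null-labelled and 5.96 on the WT array of trachea, the last just below background, and 6.48 and 6.67 in null-labelled and WT oviduct. Its differences of 0.13 and -0.19 had opposite signs, and for Cetn3 too both oviduct arrays were above both trachea arrays. The centrins thus spanned differences of -1.43 to 0.13 in trachea and -1.54 to -0.04 in oviduct. Cetn1, the testis centrin and no member of the list, read between 4.34 and 4.61 on the 4 arrays and did not pass the level filter in either tissue.

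Ccp110 and Cep97 had nearly the same differences in both tissues. Ccp110 read 6.45 on the null-labelled and 7.23 on the WT array of trachea, and 6.67 on the null-labelled and 7.44 on the WT array of oviduct. All 4 values were above background, both WT values were above both null-labelled values, and the differences were -0.78 in trachea and -0.77 in oviduct. Cep97 read 5.79 on the null-labelled and 6.53 on the WT array of trachea, and 5.46 on the null-labelled and 6.08 on the WT array of oviduct. Its differences were -0.74 and -0.62, but the null-labelled oviduct value lay below background and the null-labelled trachea value 0.05 above it. Against the negative-control median Cep97 was at least 1.22-fold lower in oviduct.

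The promoters of Ccp110 and Cep97 are shown because the 2 genes differed alike and their proteins act as a pair. The first is chr7:118712293-118712592, plus strand, and the second chr16:55934799-55935098, minus strand, both from RefSeq on GRCm38.p6 and written 5′ to 3′. Capitals mark GTTGCC, a core of the site bound by RFX ciliary transcription factors.
Ccp110: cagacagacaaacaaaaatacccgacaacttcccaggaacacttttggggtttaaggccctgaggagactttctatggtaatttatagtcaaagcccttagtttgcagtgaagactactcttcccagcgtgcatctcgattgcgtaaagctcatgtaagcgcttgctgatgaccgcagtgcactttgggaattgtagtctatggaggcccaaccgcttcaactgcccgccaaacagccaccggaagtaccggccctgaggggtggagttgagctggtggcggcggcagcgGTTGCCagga
Cep97: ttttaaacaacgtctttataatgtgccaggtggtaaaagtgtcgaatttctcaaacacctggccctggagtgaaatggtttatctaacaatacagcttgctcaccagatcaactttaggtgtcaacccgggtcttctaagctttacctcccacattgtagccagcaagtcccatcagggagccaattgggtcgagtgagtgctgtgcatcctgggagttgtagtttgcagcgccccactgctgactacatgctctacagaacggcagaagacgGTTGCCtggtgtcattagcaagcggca
Each holds GTTGCC once, downstream of the annotated start. On either strand, GTTGCC was in 3 of the 8 member promoters (Ccp110, Cep97 and Cetn2) and in 12.5% of the 32851 promoters in the table. The related core GTTACC was in those of Cep135 and Poc1a, beside 7.21% of all promoters. The E2F core TTTGGCG was in that of Ccp110, beside 1.56%. The E2F core GCGGGAA (4.6% of all promoters), the forkhead core GTAAACA (3.65%) and a paired X-box (a double RFX site, 0.298%) were in 0 of 8. The X-box begins with GTTGCC, its second part can hold the reverse complement of GTTGCC or GTTACC, and the E2F cores can share their letters GCG; other overlaps at motif ends were not counted. A match is a description of letters in the window, and none of the searched motifs was in the window of Cetn4. Other spellings of these sites were not searched.

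Cep135 and Poc1b had the widest gaps between their trachea and oviduct differences of the 10 genes, gaps that were not tested. Cep135, which links the cartwheel of the new centriole to its wall, read 5.96 on the null-labelled and 6.85 on the WT array of trachea, a difference of -0.89. In oviduct it read 6.41 on the null-labelled and 6.38 on the WT array, a difference of 0.03. The WT trachea value stood above the other 3. Poc1b read 8.02 on the null-labelled and 8.47 on the WT array of trachea, and 8.57 on the null-labelled and 8.19 on the WT array of oviduct. Its differences of -0.45 and 0.37 ran in opposite directions, and neither passed 1.5-fold. Its close relative Poc1a read 6.60 on the null-labelled and 6.63 on the WT array of trachea, and 6.51 and 6.44 in null-labelled and WT oviduct. With differences of -0.03 and 0.06, its 4 values were the closest together of the 10 genes.

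Cep120, the elongation factor, read 7.81 on the null-labelled and 8.30 on the WT array of trachea, and 7.88 on the null-labelled and 7.95 on the WT array of oviduct. Its differences were -0.50 in trachea and -0.07 in oviduct, and the WT trachea array was again the highest of the 4. Pcm1, the satellite scaffold, read 8.39 on the null-labelled and 8.14 on the WT array of trachea, and 8.63 on the null-labelled and 8.59 on the WT array of oviduct. Its differences were 0.26 and 0.04, and Pcm1 was the member with the highest difference in trachea. Pcm1 and Poc1b were highest on the null-labelled oviduct array, and the other 8 genes on a WT array.

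**Figure D3:**
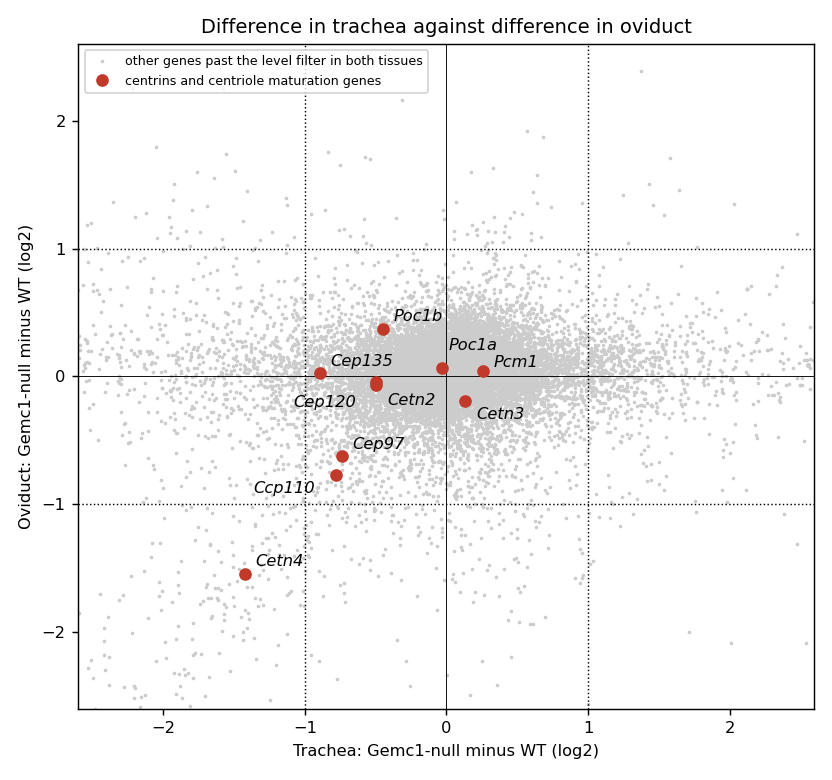
Difference between Gemc1-null and WT in trachea (x axis, log2) against that in oviduct (y axis, log2) for the 10 genes (labelled) and the other genes past the level filter in both tissues (grey). Dotted lines mark 2-fold, and 356 of 18793 genes lie outside the axes. Cetn4 lies past both lower lines, Ccp110 and Cep97 lie between 1.5-fold and 2-fold lower on both axes, and Cep135, Cetn2 and Cep120 lie left of 0 near the horizontal axis.

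A difference shared by the tissues was tested in limma over 20886 genes and all 4 arrays, with tissue as a block and 2 arrays per genotype. Its residual is the disagreement between trachea and oviduct. The standard errors and p-values are not those of a gene's own residual alone. In them limma mixes that residual, with 1 degree of freedom, and a spread taken over all genes, with 1.77 degrees of freedom. The estimate was -1.48 (SE 0.152) for Cetn4, -0.77 (SE 0.148) for Ccp110 and -0.68 (SE 0.152) for Cep97, each lower on 2 of 2 null-labelled arrays. Their unadjusted limma p-values were 0.00316, 0.0165 and 0.0244. After Benjamini-Hochberg adjustment over all genes the limma p was 0.551 for Cetn4 and 0.829 for both others, so none passed 0.05. The other 7 genes had estimates from -0.43 (Cep135, SE 0.314) to 0.15 (Pcm1, SE 0.161), with limma adjusted p-values from 0.829 to 0.98. Among all 20886 genes 0 passed (0% of those tested), and the unadjusted limma p was under 0.05 for 562 lower (2.69%) and 168 higher (0.804%), beside 3 lower and 0 higher of the 10. Because 0 of all genes passed, a missing call here says little about any member.

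**Figure D4:**
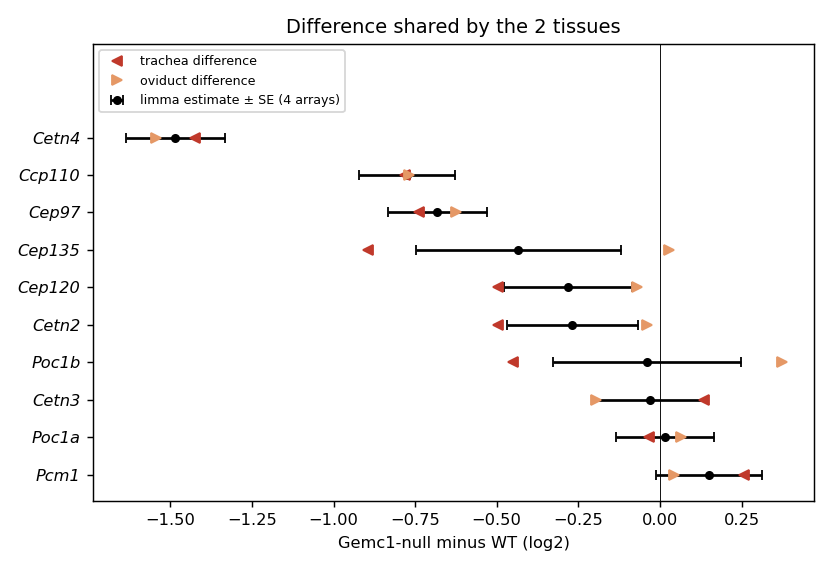
Log2 difference between Gemc1-null and WT (x axis) for the 10 genes (rows): the limma estimate over both tissues with its standard error (black), the trachea difference (left-pointing triangle) and the oviduct difference (right-pointing triangle). The triangles nearly coincide for Ccp110 at -0.78 and -0.77 and lie farthest apart for Cep135 at -0.89 and 0.03.

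Between tissues, WT trachea was lower than WT oviduct for Cetn2, Cetn3, Cetn4, Ccp110 and Pcm1, and higher for Poc1a, Poc1b, Cep97, Cep120 and Cep135. The WT differences, trachea minus oviduct, ran from -0.71 for Cetn3 to 0.47 for Cep135. In the same limma fit the tissue effect, trachea minus oviduct, was -0.55 (SE 0.178) for Cetn3, -0.47 (SE 0.152) for Cetn4 and 0.39 (SE 0.152) for Cep97, and the limma adjusted p-values of the 10 genes ran from 0.452 to 0.992. Of all genes 0 passed adjustment (0%), while an unadjusted p under 0.05 was found for 1549 lower (7.42%) and 799 higher (3.83%), beside 0 of the 10. Sex and age differ with tissue and cannot be told apart from it.

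Around the 10 genes, 72 other centriole genes from 6 lists were measured, with Poc5, which is in 2 lists, counted once and Cetn1 left out. In trachea 67 passed the filter, and 6 of them were lower by 2-fold or more (8.96%, beside 7.7% of all genes) and 0 higher (beside 6.34%), with a median of -0.26 (0.03 over all genes). In oviduct 67 passed too, with 3 lower by 2-fold or more (4.48%, beside 2.74%) and 0 higher (beside 0.806%), and a median of -0.10 (0.05 over all genes). The share lower in trachea was near that of all genes, and the counts by list below are to be set against the same shares. The 2 genes lower by 2-fold in both tissues were Fam161a and Ccdc78, beside 1.3% of the 18793 genes past the filter in both. Fam161a, a protein of the centriole's inner scaffold, read 7.06 on the null-labelled and 8.36 on the WT array of trachea, and 6.68 on the null-labelled and 7.77 on the WT array of oviduct. Ccdc78, known from centriole amplification in multiciliated cells, differed by -1.13 in trachea and -1.20 in oviduct.

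Of the wall and inner scaffold genes, 1 of 11 was at least 2-fold lower in each tissue, and Mdm1, a microtubule-binding centriole protein, differed by -0.68 in trachea and -0.80 in oviduct. Of the distal and subdistal appendage genes, 1 of 14 was lower in trachea and 1 of 15 in oviduct. They were Cntrl (centriolin) at -1.05 in trachea and Cep83, which starts the assembly of distal appendages, at -1.72 in oviduct. Cep83 differed by -0.87 in trachea, Cntrl by -0.24 in oviduct, Cep128 by -0.96 in trachea and Nin (ninein) by -0.86 in oviduct. Among the duplication and deuterosome genes 3 of 9 were lower in trachea and 1 of 9 in oviduct. Deup1, the deuterosome scaffold, differed by -1.50 in trachea and -0.95 in oviduct, but lay below background on both null-labelled arrays. Against that background it was 1.58-fold lower in trachea and at least 1.24-fold lower in oviduct. Cep192, a recruiter of centrosome material, differed by -1.07 in trachea.

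Of the length control and capping genes 0 of 12 in trachea and 0 of 11 in oviduct passed 2-fold in either direction, with Cenpj at -0.57 and Ttbk2 at -0.54 in trachea and Cep290 at -0.53 and Kif24 at -0.52 in oviduct. Cenpj lay below background on the null-labelled trachea array and was 1.34-fold lower against it. Of the centrin binding partners 0 of 7 passed in either tissue. Poc5, a centrin-binding protein of the inner scaffold, differed by -0.47 in each tissue, Sfi1 by -0.47 in trachea and 0.20 in oviduct, and Eny2 by 0.47 in oviduct. Of the satellite genes, where Pcm1 belongs, 1 of 15 was at least 2-fold lower in trachea and 0 of 15 in oviduct. It was Cfap53 at -1.12, which lay below background on the null-labelled array and was 1.74-fold lower against it. Cspp1 differed by -0.80 in trachea, and Cfap53 by -0.87 and Ccdc13 by -0.59 in oviduct.

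**Figure D5:**
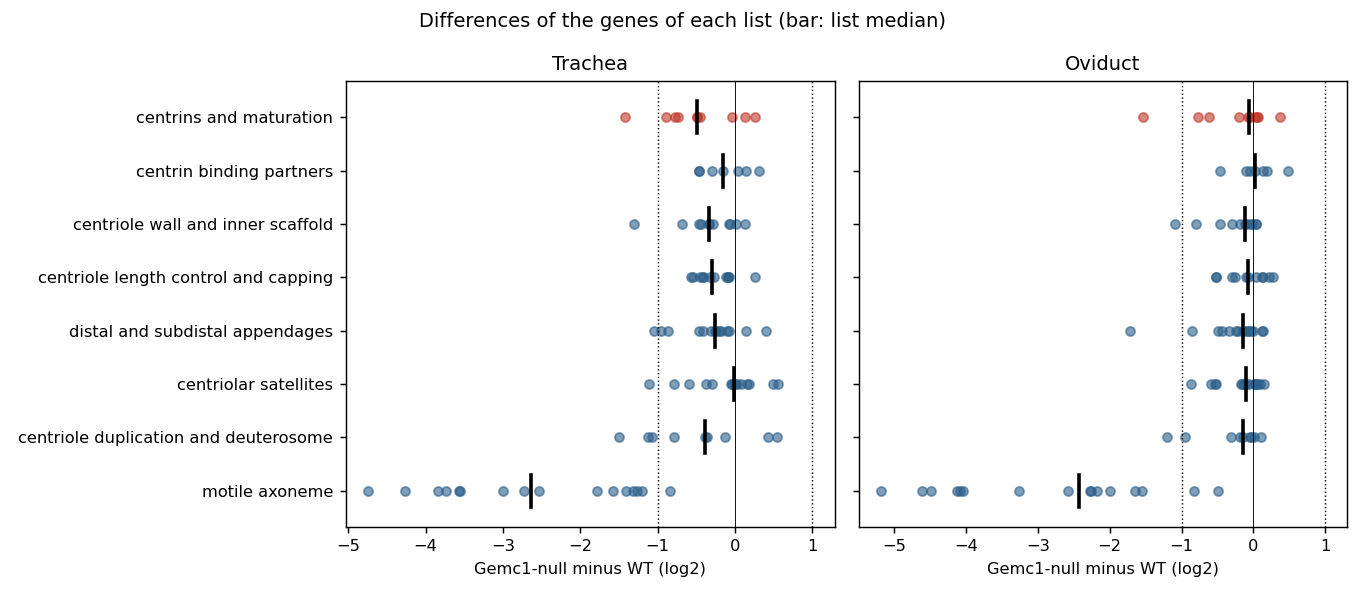
Differences between Gemc1-null and WT (x axis, log2) in trachea (left) and oviduct (right), 1 point per gene past the level filter, for the 10 genes (top row) and 7 gene lists, with the list median as a bar and 2-fold as dotted lines. The 10 genes had medians of -0.50 and -0.05, the motile axoneme list -2.63 and -2.43.

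Genes of the motile axoneme, which mark multiciliated cells, were also lower on the null-labelled arrays. In trachea 15 of 16 were lower by 2-fold or more (median -2.63, or -2.39 with values below background set to it), beside 7.7% of all genes. In oviduct 14 of 16 were (median -2.43 either way), beside 2.74%. Sntn (sentan, a protein of the ciliary tip) lay below background on both null-labelled arrays. Against that background it was 12.7-fold lower in trachea and at least 20.6-fold lower in oviduct. The log2 of the list's summed signal was 9.80 on the null-labelled and 12.47 on the WT array of trachea, and 10.10 on the null-labelled and 13.01 on the WT array of oviduct. On the null-labelled arrays 10 of 16 in trachea and 8 of 16 in oviduct lay below background, and 0 of 16 on either WT array. What part this shift has in the values of Cetn4, Ccp110 and Cep97 was not tested.

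Markers of other cells also differed between the same arrays, above all in trachea. The counts here and in the next paragraph are to be set beside the shares of all genes past the filter. Those were 7.7% at least 2-fold lower and 6.34% higher in trachea, and 2.74% lower and 0.806% higher in oviduct. In trachea the airway secretory list was lower by 2-fold or more in 8 of 8 genes. Its log2 summed signal, given below in brackets for the other lists, was 9.86 on the null-labelled and 15.24 on the WT array. Of its genes, Scgb3a2, Reg3g and Agr2 lay below background on the null-labelled array. General epithelial genes were lower in 6 of 7 (null-labelled 10.78, WT 12.24), lymphocyte genes in 5 of 5 (null-labelled 8.53, WT 12.29), adipocyte genes in 5 of 6 (null-labelled 9.45, WT 12.32) and smooth muscle genes in 3 of 6, with 1 higher (null-labelled 12.70, WT 13.22). Squamous genes were at least 2-fold higher in 6 of 6 (null-labelled 14.79, WT 8.34) and skeletal muscle genes in 8 of 8 (null-labelled 15.41, WT 10.13). Basal cell genes were at least 2-fold higher in 4 of 6 (null-labelled 13.59, WT 11.40). On the WT array 4 of 6 squamous, 4 of 8 skeletal muscle and 1 of 6 adipocyte genes lay below background. On the null-labelled array 3 of 6 adipocyte and 1 of 5 lymphocyte genes did. Of cell cycle genes, which mark dividing cells, 0 of 8 passed 2-fold in trachea (null-labelled 10.14, WT 9.92). The 4 genes that were lower in trachea, with oviduct differences of -0.07 to 0.37 (Cep135, Cetn2, Cep120 and Poc1b), stand beside these shifts, whose part in them was not tested. Of these 4 only Cep135 was past 1.5-fold. In trachea 8.71% of genes past the filter were as low as Cep135 or lower, 15.7% as low as Cetn2 or Cep120, and 17.2% as low as Poc1b.

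In oviduct the general epithelial list had 0 of 7 past 2-fold (log2 summed signal 13.10 on the null-labelled and 12.85 on the WT array) and the oviduct secretory list 0 of 6 (null-labelled 13.46, WT 13.23), with Ovgp1, the oviduct glycoprotein, at 12.84 on the null-labelled and 12.79 on the WT array. Of ovary somatic genes 4 of 5 were lower by 2-fold or more (null-labelled 9.38, WT 13.56), of oocyte genes 4 of 5 (null-labelled 7.93, WT 9.43) and of cell cycle genes 5 of 8 (null-labelled 8.90, WT 10.23). On the null-labelled array 6 of 6 measured oocyte genes and 4 of 9 measured cell cycle genes lay below background. With values below background set to it, the oocyte median moved from -1.56 to -1.20 and the cell cycle median from -1.36 to -0.88. Basal, smooth muscle, skeletal muscle, lymphocyte and squamous lists had 0 genes past 2-fold in oviduct, the adipocyte list 1 of 4 lower, and the airway secretory list 2 of 4 higher. In trachea the oviduct secretory list had 2 of 6 lower and 1 higher, the ovary somatic list 0 of 3, and no oocyte gene passed the filter. The part of the ovary, oocyte and cell cycle shifts in the lower Cetn4, Ccp110 and Cep97 of oviduct was not tested.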

How the data were processed

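The deposited values are, per the submitters' processing notes, RMA signals on a log2 scale, with no version stated there. The numbers as deposited had been put through log2 once more: raising 2 to them gave 6 significant digits in 100% of cells (relative tolerance 1e-09), against 0.0805% when raising 10, so that power of 2 was used as log2 signal. Array background correction, normalization and probe summary stand as the authors made them. Of 65956 transcript clusters 31102 were named as 1 gene through the platform annotation and a RefSeq table (GRCm38.p6), 1648 had several or unresolved genes and 33206 were not listed. Of 30574 genes 426 had several probe sets, and the one with the highest mean was used. The sources used here do not give the array's genome build.

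The level filter, the 2-fold count and limma 3.58.1 (R 4.3.3; lmFit and eBayes, Benjamini-Hochberg over all genes) are described with the results; limma's prior had 1.77 degrees of freedom. The fit was tested on simulated data, where its estimates were close to the changes put in but it called none of the changes of the size measured in the members, so a missing call is uninformative. "At least" marks a fold taken in oviduct against the negative-control median of the null-labelled array. In trachea such a fold is given without it, because the WT array's own negative-control median was higher (5.98, beside 5.74). The labels do not say whether arrays came from separate litters or runs. The p-values measure only the spread between these arrays, in part that of other genes. The genes, lists and tests were chosen with earlier results of these data known. Named were all 10 members, the 2 largest differences per centriole list and tissue, the 5 nearest patterns and head-to-head neighbours within 1000 bases; Cep192 and the marker genes given by name, the motifs and the promoters printed were chosen after values were seen. Alternatives were another probe set rule, thresholds, filters, centring, a background floor, limma's trend and terms left out.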

Additional observations from a re-analysis of the deposited data

Results flagged for a closer look

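For 4 of the 10 genes the difference between the null-labelled and the WT array had opposite signs in trachea and oviduct. The gap, as the trachea difference minus the oviduct difference on the log2 scale, was -0.92 for Cep135 and -0.82 for Poc1b, and it was 0.33 for Cetn3 and -0.10 for Poc1a. With 1 array per group the difference between tissues was not tested. For Cep135 the sign rests on an oviduct difference of 0.03, and for Poc1a both differences, -0.03 and 0.06, were small.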

How the results depend on the processing

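The count of members past the threshold followed the threshold: in trachea 4 were lower at 1.5-fold and 0 at 3-fold, against 1 at 2-fold, and in oviduct 3 and 0, against 1. Averaging probe sets and dropping the level filter could not move these counts, because each member had 1 probe set and all 10 passed the filter. A filter at the negative-control median, centring of the arrays and a floor at the negative-control median each left 1 lower and 0 higher in either tissue. With that floor the oviduct difference of Cep97 was -0.29, short of 1.5-fold. Centring moved the differences by -0.00077 in trachea and 0.00282 in oviduct. The limma genotype fit called 0 genes under every alternative run, with adjusted p-values of the members from 0.514 to 0.998 over all of them. No member's estimate changed sign. Apart from centring, the estimates could not move, because each member had 1 probe set and the 4 arrays are balanced. The tissue fit called 0 genes, except without the genotype term, where 2 genes passed and 0 members did. Beyond the tissue block already in the limma fit, no paired analysis was possible because each group holds 1 array and no replicate number pairs arrays. Leaving out an array leaves no residual for the fit and no difference within its tissue, so none was left out. Cetn4, Cep97 and Deup1 lay at or near background on null-labelled arrays, which limits their measured differences.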
